A study of Mus musculus with 9 samples.

Results

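The genes described are Gcg, which encodes proglucagon, and 6 genes whose products cut, trim, protect or amidate prohormones in secretory granules: Pcsk1, Pcsk2, Pcsk1n, Cpe, Scg5 and Pam. They were chosen by symbol, and each matched 1 row, so that all 7 were found among the 33212 gene rows of the count table. Their levels come from poly-A RNA of αTC1 cells, a glucagon-producing line derived from mouse pancreatic alpha cells. The cells were kept for 7 days with 4 µM EPZ011989 (n = 4 libraries) or for 7 days with the solvent DMSO (n = 5 libraries), both in low-glucose medium. EPZ011989 inhibits EZH2, the enzyme of the Polycomb complex PRC2 that places the repressive mark on lysine 27 of histone H3. αTC1 is a single tumour-derived line. The labels call the libraries biological replicates but do not say whether each was its own culture, so the spread behind each p-value is that of these libraries and may be technical.

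Peptide hormones are made as long precursors. Convertases cut a precursor after pairs of basic residues, carboxypeptidase E removes the basic residues left at the new end, and PAM turns an exposed C-terminal glycine into an amide. In alpha cells proglucagon is cut mainly by the convertase PC2 (Pcsk2), which frees glucagon. In intestinal L cells it is cut by PC1/3 (Pcsk1), which frees the incretin GLP-1 and also GLP-2. PC2 needs the chaperone 7B2 (Scg5) to become active, and proSAAS (Pcsk1n) yields an inhibitor of PC1/3.

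The coding sequence of Gcg (chromosome 2, 62474530 to 62483650, minus strand, GRCm38, GENCODE M21) shows the sites on which these enzymes act. It has 180 coding codons in 543 bases with the stop codon, and 7 in-frame pairs of codons for lysine or arginine. The stretch below covers codons 49 to 148, which is 300 bases, with its 6 pairs in capitals. Codons 51 and 52 and codons 82 and 83 flank glucagon, while codons 69 and 70 lie inside glucagon itself. Codons 90 and 91 precede the GLP-1 segment and codons 129 and 130 follow it. Codons 144 and 145 precede GLP-2, and the last pair, codons 179 and 180, ends the coding sequence before the stop.
Gcg coding stretch: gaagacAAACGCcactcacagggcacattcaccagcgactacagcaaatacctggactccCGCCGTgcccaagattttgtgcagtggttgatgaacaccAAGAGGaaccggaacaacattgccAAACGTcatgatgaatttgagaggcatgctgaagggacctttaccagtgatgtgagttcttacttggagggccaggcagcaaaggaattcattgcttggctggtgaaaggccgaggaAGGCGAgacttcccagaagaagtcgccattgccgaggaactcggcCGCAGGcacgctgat

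Library totals lay between 60274140 and 74651782 deposited counts. On the second principal component, with 10.9% of the variance, EPZ011989 replicates 2 and 4 were the 2 extremes, so results are also given without them where they change. Among the alpha cell markers Gcg dominated, with summed levels of the 10 genes at 17500 to 23600 CPM (edgeR's scaled count unit, with library sizes adjusted by TMM factors) with EPZ011989 and 21000 to 23200 CPM in DMSO. Of 8 beta cell markers Ins1, Pdx1 and Ucn3 were at 0 in all 9 libraries, and of 6 acinar markers Amy2a5, Prss2 and Ctrb1 were at 0. Among the 4 beta cell markers tested, 3 were called higher with EPZ011989 and 0 lower, and the 1 acinar marker tested was called lower. The 7 fibroblast markers summed to 29.5 to 41.2 CPM with EPZ011989 and 7.25 to 9.84 CPM in DMSO, with 3 of the 4 tested called higher, and the part of such cells in the results below was not tested. In bulk RNA, fewer cells expressing a gene and less RNA per cell cannot be told apart.

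The comparison of EPZ011989 with DMSO asks how inhibition of EZH2 changes gene expression in these cells. The outcome for the proglucagon genes was uneven. Pam fell to 0.663 times its DMSO level, Scg5 was lower in every library but missed the threshold narrowly, and Gcg, Pcsk2, Cpe and Pcsk1n stayed within the spread between libraries. Pcsk1 was at or next to 0 in both groups. Of the 7 genes, 6 passed the filter on low counts. Among these 6, 1 was called lower and 0 higher at an adjusted p under 0.05 (edgeR quasi-likelihood test, Benjamini-Hochberg adjustment over 14754 genes). At an unadjusted edgeR p under 0.05, and also at adjusted p with DESeq2 or limma-voom, 2 were lower and 0 higher. Of all genes tested, 7.96% were called lower and 16.2% higher. The 6 had a median log2 fold change of -0.03, beside 0.03 over all genes tested.

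**Figure D1:**
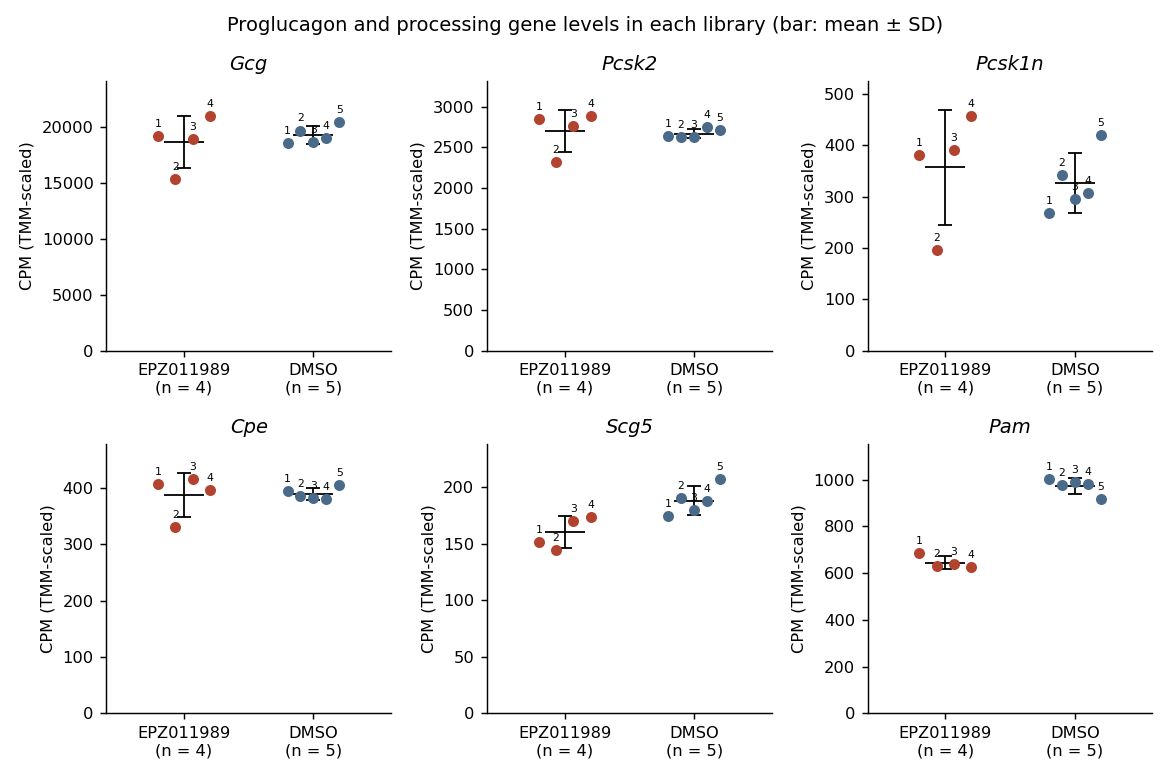
CPM (vertical axes, each starting at 0) of 6 genes in every library, with EPZ011989 (n = 4) left of DMSO (n = 5); small digits are replicate numbers and black bars the mean ± SD. The 4 Pam values with EPZ011989, between 625 and 686 CPM, all lie under the 5 DMSO values, and EPZ011989 replicate 2 is the lowest point for Gcg, Pcsk2, Pcsk1n and Cpe.

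The substrate itself, Gcg, was at 19226, 15392, 18947 and 20966 CPM in EPZ011989 replicates 1 to 4, against 18565, 19688, 18631, 19039 and 20476 CPM in DMSO replicates 1 to 5. The groups overlapped, and EPZ011989 held both the lowest value, in replicate 2, and the highest, in replicate 4. The log2 fold change of EPZ011989 over DMSO was -0.05 ± 0.10 (SE), with a 95% interval from 0.834 to 1.12 times the DMSO level (adjusted p = 0.778, edgeR). A fall below 0.834 times the DMSO level or a rise above 1.12 times thus lay outside the interval. Without EPZ011989 replicate 2 the log2 fold change was 0.03 (adjusted p = 0.785, edgeR), and with the other alternatives it also did not pass. Gcg made up 1.61% to 2.08% of all deposited counts in the EPZ011989 libraries and 1.85% to 1.97% in the DMSO libraries.

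Per kilobase of exon, Gcg ranked 1 with EPZ011989 and 2 in DMSO among 20713 genes with a count. The only gene above it in DMSO was mt-Co1, a mitochondrial subunit of cytochrome oxidase. Among the processing genes, Pcsk2 ranked 95 with EPZ011989 and 97 in DMSO. Cpe ranked 273 with EPZ011989 and 270 in DMSO, and Pcsk1n 237 with EPZ011989 and 272 in DMSO. Scg5 ranked 421 with EPZ011989 and 351 in DMSO, and Pam 938 with EPZ011989 and 575 in DMSO, so that the 2 genes with groups that did not overlap also lost the most places.

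Pcsk2 (chromosome 2, 143546156 to 143816285, plus strand) was at 2849, 2323, 2764 and 2882 CPM in EPZ011989 replicates 1 to 4, against 2633, 2625, 2628, 2749 and 2712 CPM in DMSO replicates 1 to 5. In EPZ011989 replicates 1, 3 and 4 it was above every DMSO library, and in replicate 2 below every one. The log2 fold change was 0.02 ± 0.08 (SE), with a 95% interval from 0.899 to 1.14 times (adjusted p = 0.905, edgeR). Without EPZ011989 replicate 2 it was 0.08 (adjusted p = 0.242, edgeR). The 5 DMSO libraries differed little for this gene, with a coefficient of variation of 2.14%. Of 2415 tested genes at 100 CPM or more, 94.8% varied more.

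Pcsk1 (chromosome 13, 75089826 to 75134861, plus strand), the convertase that frees GLP-1, had 0 counts in all 4 EPZ011989 libraries and in 4 of the 5 DMSO libraries. DMSO replicate 1 had 5 counts, 0.0677 CPM, which is about 1 fragment since many fragments appear to add about 4 counts in this table. A library at 0 allows up to 0.158 to 0.203 CPM at a floor of 12 counts, or 3 such fragments, for counting error only. Per kilobase of transcript, Pcsk2 was at least 14479-fold higher than Pcsk1 in each of the 8 libraries with 0 Pcsk1 counts. No transcript of the L cell convertase was therefore detectable at this depth with EPZ011989. Pcsk1 did not pass the filter and was not tested.

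Cpe (chromosome 8, 64592542 to 64693054, minus strand), the carboxypeptidase, was at 406, 331, 415 and 395 CPM in EPZ011989 replicates 1 to 4, against 395, 385, 382, 380 and 405 CPM in DMSO replicates 1 to 5. The groups overlapped, with EPZ011989 replicate 2 again the lowest library. The log2 fold change was -0.01 ± 0.07 (SE), with a 95% interval from 0.887 to 1.11 times (adjusted p = 0.954, edgeR), and 0.05 without EPZ011989 replicate 2 (adjusted p = 0.416, edgeR).

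Pcsk1n (chromosome X, 7919822 to 7924410, plus strand), which encodes proSAAS, varied most between libraries. It was at 382, 197, 392 and 457 CPM in EPZ011989 replicates 1 to 4, against 268, 342, 296, 308 and 420 CPM in DMSO replicates 1 to 5. EPZ011989 replicate 2 was the lowest and replicate 4 the highest of all 9. The log2 fold change was 0.13 ± 0.21 (SE), with a 95% interval from 0.79 to 1.51 times (adjusted p = 0.737, edgeR). Without EPZ011989 replicate 2 it was 0.32 (adjusted p = 0.0617, edgeR), still short of the threshold. Without EPZ011989 replicate 4 it was -0.02 (adjusted p = 0.957, edgeR), and without both replicates 0.24 (adjusted p = 0.217, edgeR). Its coefficient of variation was 31.3% with EPZ011989 and 17.9% in DMSO. Of the 2415 genes at 100 CPM or more, 3.44% varied more with EPZ011989 and 0.58% varied more in DMSO. Its interval was the widest of the 6.

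EPZ011989 replicate 2 was the lowest EPZ011989 library for 5 of the 6 genes, but only Pcsk1n was extreme for that library. Pcsk1n stood there at 0.48 times the mean of the other 3 EPZ011989 libraries, and 0.0535% of 9344 tested genes at 10 CPM or more had a lower ratio. The ratio was 0.781 for Gcg, 0.82 for Pcsk2, 0.816 for Cpe and 0.877 for Scg5, beside a median of 0.966 over those genes. Pam, at 0.969, was near that median.

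Scg5 (chromosome 2, 113776362 to 113829121, minus strand), which encodes the PC2 chaperone 7B2, was at 151, 145, 171 and 174 CPM in EPZ011989 replicates 1 to 4, against 174, 191, 180, 188 and 207 CPM in DMSO replicates 1 to 5. Each EPZ011989 library was below each DMSO library, with EPZ011989 replicate 4 just under DMSO replicate 1. The log2 fold change was -0.23 ± 0.08 (SE), with a 95% interval from 0.756 to 0.96 times, and the adjusted p of 0.0529 (edgeR) missed the threshold. It passed under 11 of 22 alternatives, among them DESeq2 (adjusted p = 0.0149), limma-voom (0.0467), RLE factors (0.0419) and a fit without EPZ011989 replicate 2 (0.0443), and was negative under all 22. The call for Scg5 thus depends on the tool, the scaling and the libraries.

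Pam (chromosome 1, 97795114 to 98095646, minus strand), which encodes the amidating enzyme, was at 686, 630, 641 and 625 CPM in EPZ011989 replicates 1 to 4, against 1003, 975, 991, 980 and 918 CPM in DMSO replicates 1 to 5. The groups lay far apart, with the highest EPZ011989 library well under the lowest DMSO library. The mean was 645 ± 28 CPM with EPZ011989 (SD, n = 4) and 973 ± 33 CPM in DMSO (SD, n = 5). The log2 fold change was -0.59 ± 0.06 (SE), which is 0.663 times the DMSO level with a 95% interval from 0.603 to 0.729 (adjusted p = 5.49e-05, edgeR). It passed under all 22 alternatives, at log2 fold changes from -0.65 to -0.54. EPZ011989 and DMSO ranges did not overlap, in the direction of a fall, for 2 of the 6 genes, Pam and Scg5, and for 8.77% of all genes tested.

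**Figure D2:**
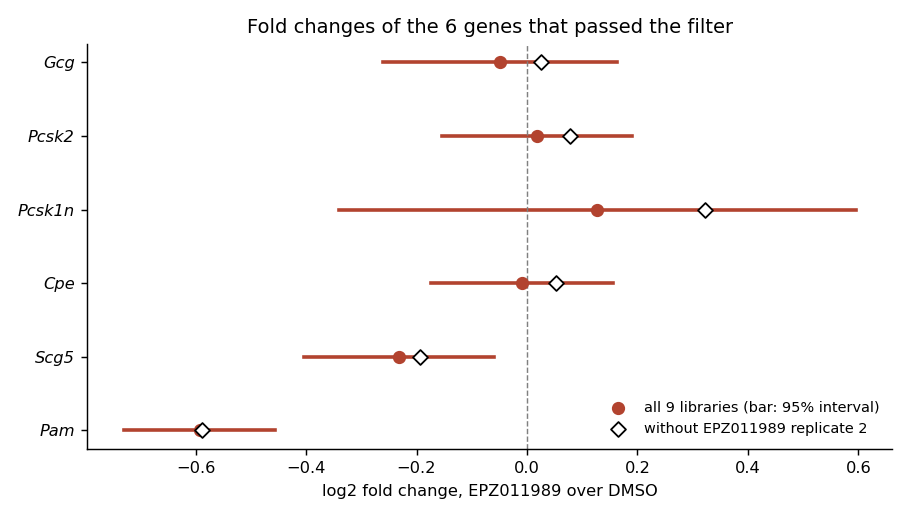
Log2 fold change of EPZ011989 over DMSO (horizontal axis) for the 6 genes that passed the filter, as red points with 95% interval bars from all 9 libraries and as open diamonds without EPZ011989 replicate 2. The bars of Pam and Scg5 lie left of 0, though Scg5 missed the adjusted threshold, and the diamonds of Gcg, Pcsk2, Pcsk1n and Cpe lie right of the red points.

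Exons of 3 of the 7 genes overlap those of other genes, and whether the counting used strand is not known from the sources used here. Pcsk1n shares 135 bases with Eras on the other strand, which was at 0.0427 CPM with EPZ011989 and 0.0147 CPM in DMSO. Pam shares 188 bases with a transcript model on the same strand, at 6.67 CPM with EPZ011989 and 13.1 CPM in DMSO, while Pam itself was at 645 CPM with EPZ011989 and 973 CPM in DMSO. Pcsk2 shares 260 and 99 bases with a pair of antisense genes whose symbols are not in the count table, so their levels are not known.

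Ratios between genes within a library do not depend on how libraries are scaled, and 4 were tested with a two-sided exact permutation test over all assignments of the 9 libraries to groups of 4 and 5, whose smallest p is 0.0159. P-values were adjusted over the 4 ratios. The Pam to Cpe ratio of counts was 1.69, 1.9, 1.54 and 1.58 in EPZ011989 replicates 1 to 4, against 2.54, 2.54, 2.6, 2.58 and 2.26 in DMSO replicates 1 to 5. The groups did not overlap, and the mean log2 ratio was lower with EPZ011989 by 0.58 (exact permutation p = 0.0159, adjusted 0.0317), so Pam was lower relative to Cpe in every EPZ011989 library.

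The Scg5 to Pcsk2 ratio, chaperone to convertase, was 0.0531, 0.0624, 0.0617 and 0.0604 in EPZ011989 replicates 1 to 4, against 0.0662, 0.0727, 0.0684, 0.0684 and 0.0765 in DMSO replicates 1 to 5. These groups did not overlap either, with a log2 difference of -0.25 (exact permutation p = 0.0159, adjusted 0.0317). With the length trend of each library removed, the adjusted p of this ratio was 0.19 and that of Pam to Cpe 0.0635. With 1 library left out, the log2 differences were -0.271 to -0.194 for Scg5 to Pcsk2 and -0.641 to -0.54 for Pam to Cpe. The exact permutation test then allows no p under 0.0286 (4 against 4) or 0.0357 (3 against 5), so the adjusted p-values of 0.0476 to 0.0714 reflect the number of libraries and say nothing of stability. The Cpe to Pcsk2 ratio averaged 0.143 ± 0.005 with EPZ011989 and 0.146 ± 0.005 in DMSO (exact permutation p = 0.429, adjusted 0.429). The Pcsk2 to Gcg ratio, convertase to substrate, averaged 0.146 ± 0.006 with EPZ011989 and 0.139 ± 0.005 in DMSO (exact permutation p = 0.111, adjusted 0.148). Both of these overlapped between the groups. Ratios to Pcsk1 could not be formed.

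**Figure D3:**
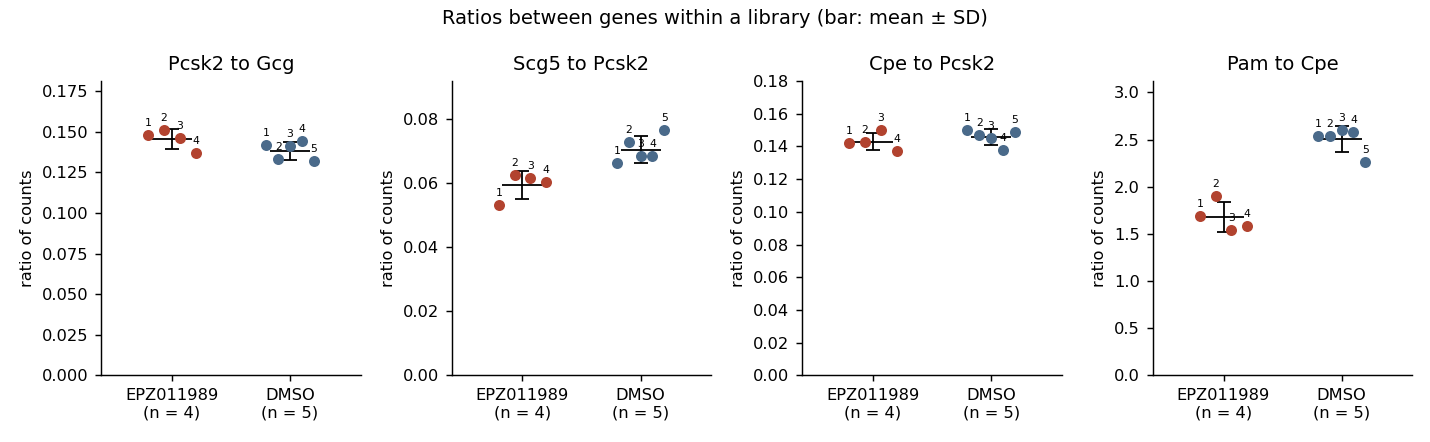
Ratio of counts of 2 genes in the same library (vertical axes from 0), with EPZ011989 (n = 4) left of DMSO (n = 5), replicate numbers beside the points and mean ± SD as black bars. The Pam to Cpe and Scg5 to Pcsk2 points of EPZ011989 all lie under those of DMSO, while the points of the other ratios overlap.

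Levels of different genes were compared per kilobase of the transcript with the longest coding sequence. With EPZ011989, Gcg was at 17126 ± 2149 CPM per kilobase and Pcsk2 at 573 ± 55, and Cpe followed at 183 ± 18, Pcsk1n at 163 ± 51, Pam at 158 ± 7 and Scg5 at 133 ± 12 (SD, n = 4). In DMSO, Gcg was at 17720 ± 739 CPM per kilobase and Pcsk2 at 565 ± 12, and Pam followed at 238 ± 8, Cpe at 184 ± 5, Scg5 at 156 ± 11 and Pcsk1n at 149 ± 27 (SD, n = 5). The order of the level of Pam and Cpe differed between the groups, with Pam above Cpe in all 5 DMSO libraries. With EPZ011989, the ranges of Pcsk1n overlapped those of its neighbours Cpe and Pam, and in DMSO that of Scg5. The level of Gcg per kilobase was 29.8 times that of Pcsk2 with EPZ011989 and 31.3 times in DMSO. Per kilobase of all annotated exons, Pam was the lowest of the 6 in both groups, at 54.3 CPM per kilobase with EPZ011989 and 81.8 in DMSO, so its place in the order depends on the length used.

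**Figure D4:**
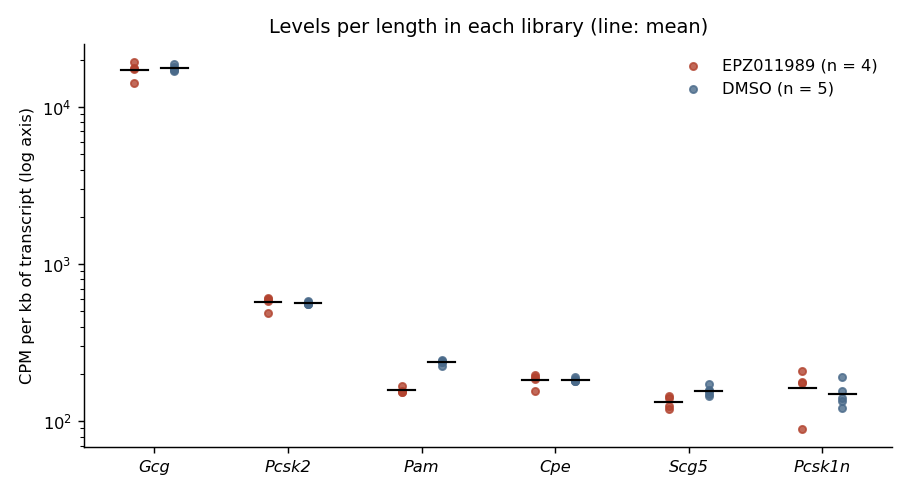
CPM per kilobase of transcript (log axis) of 6 genes in each library, EPZ011989 (n = 4) left of DMSO (n = 5) within each gene, with lines at the means. Gcg lies about 30 times above Pcsk2 in both groups, and only Pam and Scg5 have groups that do not overlap.

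The start regions of these genes differ in CG dinucleotides, whose clusters (CpG islands) are known to attract Polycomb complexes in mammals. The RefSeq table (GRCm38.p6, 250 bases before to 50 after each gene's start) held 6 of the 7 genes. Gcg, the most abundant, Pcsk1, the undetected one, and Pam, which fell, are shown with CG steps in capitals.
Gcg, chr2:62483604-62483903, minus strand: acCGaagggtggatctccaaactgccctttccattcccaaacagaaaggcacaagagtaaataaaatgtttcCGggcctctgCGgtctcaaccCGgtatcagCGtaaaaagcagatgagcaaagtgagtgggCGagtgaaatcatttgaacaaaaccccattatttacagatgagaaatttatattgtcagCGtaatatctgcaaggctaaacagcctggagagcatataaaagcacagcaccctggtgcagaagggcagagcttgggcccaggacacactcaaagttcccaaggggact
Pcsk1, chr13:75089607-75089906, plus strand: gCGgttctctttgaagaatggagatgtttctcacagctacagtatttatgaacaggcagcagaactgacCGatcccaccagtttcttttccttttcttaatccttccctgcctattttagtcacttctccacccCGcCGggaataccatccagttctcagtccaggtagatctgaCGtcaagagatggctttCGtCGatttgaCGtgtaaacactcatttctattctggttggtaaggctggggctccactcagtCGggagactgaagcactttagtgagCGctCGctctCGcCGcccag
Pam, chr1:98095597-98095896, minus strand: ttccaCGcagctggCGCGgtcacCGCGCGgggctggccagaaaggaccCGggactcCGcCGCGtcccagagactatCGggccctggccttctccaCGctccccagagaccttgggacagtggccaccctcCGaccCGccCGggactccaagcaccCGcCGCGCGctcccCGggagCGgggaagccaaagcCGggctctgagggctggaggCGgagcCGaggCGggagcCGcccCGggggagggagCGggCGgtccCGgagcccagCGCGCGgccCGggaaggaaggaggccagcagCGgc
Gcg had 7 CG steps and Pcsk1 13, beside a median of 7 over 32851 promoters of that length. Pam had 35 at this start and 38 at a second annotated start nearby, and Pcsk2 had 36, more than 93.8% of promoters. Scg5 had 9 and Pcsk1n 12. Of these genes Gcg alone held the TATA motif TATAAA (either strand), at 24 and 72 bases before the start, which 13.6% of promoters hold. Pcsk1 alone held the cAMP response element TGACGTCA, a palindrome read the same on both strands, at 78 bases before the start, which 1.79% of promoters hold. Pcsk2 and Pam both had a CG-rich start, and of the pair only Pam was called. Whether the CG content of a start bears on the change with EPZ011989 was not tested.

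Genes with the most similar profile were sought among 2386 named genes at 100 CPM or more, by the root mean square difference of log2 CPM over the 9 libraries after centring on the DMSO mean. For Gcg they were Slc25a5, a mitochondrial ADP/ATP carrier (0.028), Surf4, a cargo receptor of the endoplasmic reticulum (0.0293), and Sae1, a subunit of the SUMO-activating enzyme (0.0319). For Pam they were Gatsl2 (0.045), Gfm1, a mitochondrial elongation factor (0.0565), and Sh3bp4 (0.0601). Gfm1 was at 173 CPM with EPZ011989 and 251 CPM in DMSO.

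Other genes of prohormone processing were taken from 9 lists with 88 genes in the count table, of which 74 passed the filter. Across them 16 were called higher and 8 lower, 21.6% and 10.8% of those tested. Of all genes tested, 16.2% were higher and 7.96% lower. The largest rises lay among genes under 5 CPM in both groups, most of which passed the filter only through the EPZ011989 libraries, so the share called higher is not read against that of all genes. Levels are given as mean ± SD, with n = 4 libraries for EPZ011989 and n = 5 for DMSO, and p-values are those of the same edgeR fit.

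Of 7 other convertases 5 were tested and 0 rose, with a median log2 fold change of 0.02. Furin, the convertase of the constitutive pathway, was at 68.5 ± 7.22 CPM with EPZ011989 and 59.7 ± 3.34 CPM in DMSO (adjusted p = 0.117, edgeR), and Mbtps1, the site-1 protease, at 215 ± 11.7 CPM with EPZ011989 and 212 ± 5.33 CPM in DMSO (adjusted p = 0.886, edgeR). The untested ones, Pcsk5 and Pcsk6, stayed at or under 0.11 CPM on average. At an unadjusted edgeR p under 0.05, 2 of the 5 were higher, while DESeq2 and limma-voom called 0 higher.

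Of 7 carboxypeptidases related to CPE, 6 were tested, 1 fell and 0 rose. Some of the 6 were near the floor in DMSO, so a median over the list is not given. Cpn1, a subunit of carboxypeptidase N, was at 46.1 ± 8.61 CPM with EPZ011989 and 59.7 ± 3.88 CPM in DMSO (adjusted p = 0.0427, edgeR). Cpd, which trims precursors in the trans-Golgi network, was at 66.1 ± 18.9 CPM with EPZ011989 and 57.4 ± 4.23 CPM in DMSO (adjusted p = 0.415, edgeR), and Cpm at 8.62 ± 1.11 CPM with EPZ011989 and 8.5 ± 0.999 CPM in DMSO (adjusted p = 0.935, edgeR). DESeq2 and limma-voom also called 0 higher, and 1 was higher at an unadjusted edgeR p under 0.05.

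Among 8 other peptidases and glutaminyl cyclases, 4 rose and 1 fell. Qpct, among the 4, passed the filter only through the EPZ011989 libraries, so neither this count nor a median over the list describes its members. Qpct, which forms pyroglutamate at peptide N-termini, was at 2.12 ± 0.471 CPM with EPZ011989 and 0.0604 ± 0.039 CPM in DMSO, where it was near the floor (adjusted p = 3.9e-05, edgeR). Ece1, an endothelin-converting enzyme, rose to 101 ± 8.15 CPM with EPZ011989, against 57.5 ± 3.77 CPM in DMSO (adjusted p = 2.66e-05, edgeR), a log2 fold change of 0.81 ± 0.08 (SE). The paralog Ece2 fell to 68.6 ± 4.02 CPM, against 84 ± 4.29 CPM in DMSO (adjusted p = 0.00901, edgeR). Ctsb, a lysosomal cathepsin, rose to 249 ± 36.8 CPM, against 193 ± 8.48 CPM in DMSO (adjusted p = 0.0161, edgeR). Nrd1, nardilysin, was at 222 ± 4.81 CPM with EPZ011989 and 231 ± 6.44 CPM in DMSO (adjusted p = 0.526, edgeR), and Rnpep, aminopeptidase B, at 48 ± 10 CPM with EPZ011989 and 46.9 ± 3.43 CPM in DMSO (adjusted p = 0.903, edgeR).

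PAM needs copper and ascorbate. Of 6 genes that supply them, 1 fell and 0 rose, with a median of 0.04. Cyb561, which carries electrons into granules to renew ascorbate, fell to 68.7 ± 4.99 CPM with EPZ011989, against 79.9 ± 3.62 CPM in DMSO (log2 fold change -0.22 ± 0.07 SE, adjusted p = 0.0439, edgeR). The copper importer gene Slc31a1 was at 57 ± 4.85 CPM with EPZ011989 and 63.7 ± 1.94 CPM in DMSO (adjusted p = 0.132, edgeR), and Ccs, a copper chaperone, at 23.6 ± 4.6 CPM with EPZ011989 and 24.9 ± 2.48 CPM in DMSO (adjusted p = 0.737, edgeR). At an unadjusted edgeR p under 0.05, as with DESeq2, 2 of the 6 were lower, and 0 were higher by either or by limma-voom.

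In the signal peptidase and translocon, through which precursors enter the secretory pathway, 1 of 8 genes fell and 0 rose, with a median of -0.10. Sec61a1, the channel subunit, fell to 435 ± 28.4 CPM with EPZ011989, against 510 ± 12.7 CPM in DMSO (adjusted p = 0.0232, edgeR). The signal peptidase subunit gene Spcs2 had a log2 fold change of -0.21 (adjusted p = 0.0508, edgeR), and Spcs3 was at 125 ± 10.7 CPM with EPZ011989 and 141 ± 3.19 CPM in DMSO (adjusted p = 0.0865, edgeR). Of 18 genes of the proton pump that acidifies granules, 2 fell and 0 rose, with a median of -0.04. Atp6v1h fell to 178 ± 10.7 CPM, against 208 ± 6.99 CPM in DMSO (adjusted p = 0.0225, edgeR), and Atp6v1c1 to 114 ± 3.97 CPM, against 129 ± 1.34 CPM in DMSO (adjusted p = 0.0319, edgeR). The abundant Atp6v0c was at 419 ± 74.2 CPM with EPZ011989 and 414 ± 35.9 CPM in DMSO, and Atp6v1b2 at 323 ± 24 CPM with EPZ011989 and 360 ± 10.5 CPM in DMSO. In both lists 0 were higher at an unadjusted edgeR p under 0.05, with DESeq2 and with limma-voom, while the unadjusted p gave 3 lower in the translocon list and 4 in the pump list.

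Transcription factors that bind the glucagon gene rose for 4 of the 8 tested and fell for 0, with a median of 0.24. Over all genes tested, 16.2% were called higher and 7.96% lower, with a median of 0.03. Whether these factors bear on the Gcg level, which stayed within the spread between libraries, was not tested. Isl1, a LIM homeodomain factor of islet cells, rose to 588 ± 24.3 CPM with EPZ011989, against 475 ± 6.64 CPM in DMSO (adjusted p = 0.00236, edgeR). Nkx2-2, another islet homeodomain factor, rose to 179 ± 14.9 CPM with EPZ011989, against 154 ± 5.09 CPM in DMSO (adjusted p = 0.0369, edgeR). Foxa2, at 107 ± 8.89 CPM with EPZ011989 and 103 ± 6.19 CPM in DMSO, and Neurod1, at 152 ± 19.1 CPM with EPZ011989 and 155 ± 7.57 CPM in DMSO, did not pass. DESeq2 and the unadjusted edgeR p under 0.05 each gave 1 lower gene in this list, and limma-voom 0.

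Of 18 other prohormone and granin genes, 13 were tested, and those well detected in both groups went both ways. Of the 8 called higher, 5 averaged under 0.1 CPM in DMSO and passed the filter only through the EPZ011989 libraries, so neither this count nor a median over the list describes its members. The others called higher were Vgf, Ins2 and the granin Chgb, which is named because of its values, and Scg2 was called lower. Vgf, a neuroendocrine precursor, rose to 215 ± 46.3 CPM with EPZ011989, against 85 ± 6.48 CPM in DMSO (log2 fold change 1.34 ± 0.13 SE, adjusted p = 3.86e-05, edgeR). Scg2, secretogranin II, fell to 2400 ± 99.9 CPM with EPZ011989, against 3400 ± 127 CPM in DMSO (log2 fold change -0.50 ± 0.07 SE, adjusted p = 2.95e-04, edgeR). Ins2, an insulin gene, was at 4.85 ± 1.46 CPM with EPZ011989 and 0.653 ± 0.243 CPM in DMSO (adjusted p = 5.72e-05, edgeR). Sst, somatostatin, had 0 counts in all 5 DMSO libraries and was at least 4.93-fold higher with EPZ011989, against the floor of 12 counts per library. The 8 beta cell markers, Ins2 among them, summed to 44.3 to 56.8 CPM with EPZ011989 and 38.3 to 43.5 CPM in DMSO. The 3 delta cell markers, Sst among them, summed to 965 to 1610 CPM with EPZ011989 and 1360 to 1810 CPM in DMSO. Sst, at 0.866 CPM on average with EPZ011989 and 0 in DMSO, made up almost none of these sums. Of the 2 delta cell markers tested, 1 was called higher and 0 lower. The part of such cells in these values was not tested. Chga, chromogranin A, was at 2110 ± 419 CPM with EPZ011989 and 1890 ± 107 CPM in DMSO (adjusted p = 0.416, edgeR), and Scg3 at 185 ± 27.5 CPM with EPZ011989 and 218 ± 9.52 CPM in DMSO (adjusted p = 0.1, edgeR).

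The receptor genes of proglucagon peptides, Gcgr, Glp1r and Glp2r, were near 0 in both groups. Of 6 receptors and degrading enzymes 2 passed the filter, and neither was called by edgeR, DESeq2 or limma-voom, nor at an unadjusted edgeR p under 0.05. Mme, neprilysin, was at 89.9 ± 45 CPM with EPZ011989 and 98 ± 9.67 CPM in DMSO (adjusted p = 0.785, edgeR). Gipr, the receptor of GIP, a peptide with its own gene Gip, was at 0.43 ± 0.0992 CPM with EPZ011989 and 0.263 ± 0.153 CPM in DMSO (adjusted p = 0.365, edgeR). The glucagon receptor gene Gcgr, Glp1r, Glp2r and Dpp4 each stayed under 0.1 CPM on average in both groups.

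**Figure D5:**
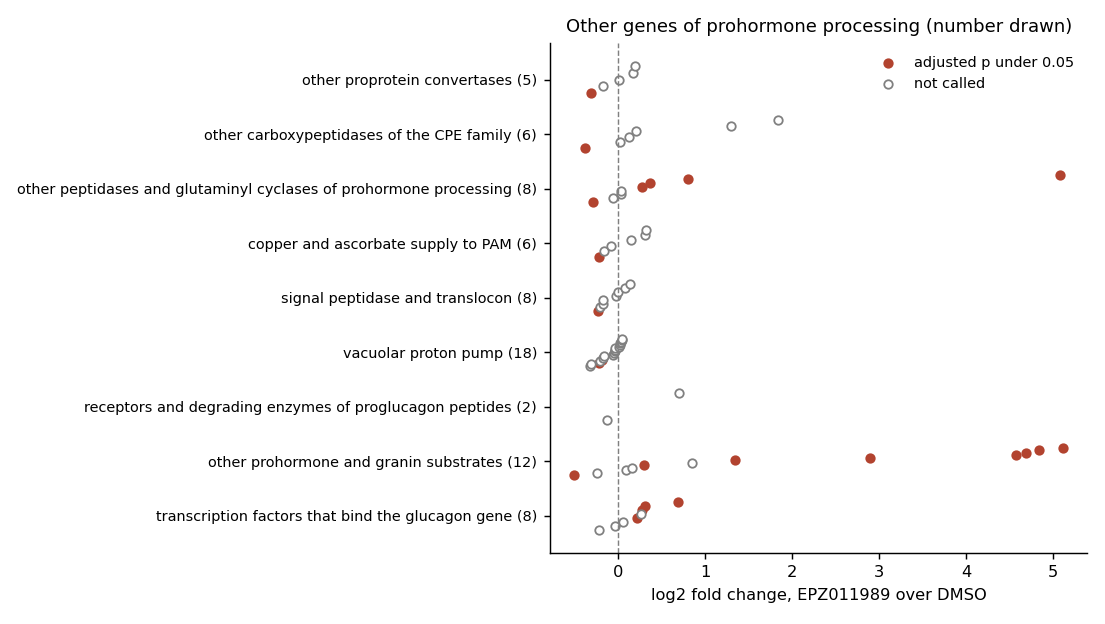
Log2 fold change of EPZ011989 over DMSO (horizontal axis) for each tested gene of the 9 lists, with the number drawn in brackets, filled where the adjusted p was under 0.05 and open where it was not. Sst, at 0 in DMSO, is not drawn; most points lie near 0, and the rises above 4 belong to low genes such as Qpct.

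Exons of Ctsb, Ece2, Nrd1, Rnpep, Cyb561, Sec61a1, Spcs3, Atp6v1h, Furin, Nkx2-2 and Neurod1 overlap those of other genes, so their levels may include reads of these.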

How the data were processed

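The authors deposited gene counts as whole numbers (33212 rows) and a normalized table of linear signal values (20796 rows), each with 1 column per library. Per the submitters' processing notes, HISAT2, StringTie, DESeq2 and the build mm10 were used, without roles or versions. The deposited signal equalled the count divided by 1 factor per library for 100% of matched values (relative tolerance 1e-04), so the deposited counts were used.

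Genes were filtered with filterByExpr, scaled by TMM factors and compared by edgeR 4.0.16 in R 4.3.3 (robust quasi-likelihood F test, treatment as the only term, all 9 libraries), with Benjamini-Hochberg adjustment for 14754 genes. The SE was obtained as log2 fold change over the square root of F. Ratios were tested by exact permutation, adjusted over the 4 that could be formed of 6 planned. Positions and lengths come from GENCODE M21 (GRCm38).

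Named genes are the 7 genes, up to 4 called (smallest p) and 2 uncalled (highest level) per list, and the 3 nearest profiles of Gcg and of each called gene. Some genes that this rule names are not reported here. The members and lists were chosen with earlier results of these data known. In simulated counts of 13925 genes for this comparison, 87% of 100 genes with a 2-fold change were called, as were 99% of 100 with a 4-fold change, beside 10 false calls. These shares do not apply to smaller changes, such as that of Pam to 0.663 times its DMSO level. Every pair of replicates differed beyond sampling noise (counts divided by 4, chi-square over degrees of freedom at least 4.19), so none was merged. Alternatives were other scalings, filters and tools, a replicate block, and libraries left out.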

Additional observations from a re-analysis of the deposited data

Results flagged for a closer look

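Among 21 sets of values of 1 gene or ratio in 1 group, 2 held a library far from the others by the Dixon criterion, and chance flags about 1 in 20 sets. Pcsk1 was at 0.0677 CPM (5 counts) in DMSO replicate 1, while the other 4 DMSO libraries were at 0. Any count above 0 there would have been flagged, so this flag carries no weight and the rate of 1 in 20 does not apply to it. The Pam to Cpe ratio was 2.26 in DMSO replicate 5, against 2.54 to 2.6 in the other 4 DMSO libraries, and it stayed above every EPZ011989 library.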

How the results depend on the processing

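Among the 22 alternatives of the fit, Pam passed as lower in all and Gcg, Pcsk2, Pcsk1n and Cpe passed in none. Leaving out 1 library at a time gave log2 fold changes of -0.127 to 0.025 for Gcg, -0.0319 to 0.0776 for Pcsk2, -0.0242 to 0.322 for Pcsk1n, -0.0566 to 0.0517 for Cpe, -0.291 to -0.193 for Scg5 and -0.649 to -0.589 for Pam. Scg5 passed as lower, which made 2 genes lower in place of 1, with RLE factors or DESeq2 (log2 fold change -0.248 in both), limma-voom (-0.233), limma on log2(value + 1) or log2(value + 10) of the normalized table (-0.246 and -0.245), counts divided by 4 (-0.239), the length trend removed (-0.283), without EPZ011989 replicates 2 and 4 (-0.226, adjusted p = 0.0497), and without DMSO replicate 1, EPZ011989 replicate 2 or EPZ011989 replicate 4 (adjusted p = 0.0464, 0.0443 and 0.0343). The count of members lower thus ran from 1 to 2 when 1 library was left out. The cause was not tested.

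Over all genes, 2388 were higher and 1174 lower. The lower count was 776 with upper-quartile factors and 1854 with the length trend removed, and leaving out 1 library gave 1861 to 2939 higher and 781 (without EPZ011989 replicate 3) to 2377 (without EPZ011989 replicate 2) lower. Correlations of deviations between libraries of the same number were -0.0985 to 0.0302, so the numbers pair no libraries. With the replicate number as a block, 1550 genes were higher and 471 lower, and Pam still passed (adjusted p = 0.0051).

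For the ratios, leaving out 1 library gave log2 differences of -0.271 to -0.194 for Scg5 to Pcsk2 and -0.641 to -0.54 for Pam to Cpe, with adjusted p of 0.0571 without any 1 DMSO library, 0.0714 without EPZ011989 replicate 1, 2 or 3 and 0.0476 without replicate 4, which follow from the smallest p that fewer libraries allow and say nothing of stability. Pcsk2 to Gcg ran from 0.0534 to 0.0982 and passed without EPZ011989 replicate 4 (adjusted p = 0.0476). Scg5 to Pcsk2 and Pam to Cpe were -0.282 and -0.554 with the length trend removed, -0.297 and -0.631 without EPZ011989 replicates 2 and 4, and -0.216 and -0.614 with the replicate block, whose 4 pairs allow no p under 0.125.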

Other observations

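A transcript model whose exons overlap those of Pam on the same strand, B230216N24Rik, was chosen after its values were seen. It was at 6.67 CPM with EPZ011989 and 13.1 CPM in DMSO (log2 fold change -0.98, adjusted p = 0.00171, edgeR), lower in the same direction as Pam. The 2 genes share 188 bases of exon, and how reads there were assigned is not given in the sources used here.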
